A study of Mus musculus with 6 samples.

Results

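Immediate early genes are transcribed within minutes of a stimulus, without new protein synthesis, and 10 of them were followed here in dystrophic mouse ventricle: Fos, Fosb, Jun, Junb, Egr1, Atf3, Ier2, Nr4a1, Dusp1 and Btg2. A gene was taken from the table of array values when the platform annotation gave its row that symbol and no other. This found 9 of the 10 genes among 30063 genes in all, each on 1 row. The row that carries Junb also carries Prdx2, so Junb has no value here. Of the listed genes, Dusp1 encodes a phosphatase, Btg2 a transcriptional coregulator and Ier2 a short-lived nuclear protein, while the rest encode DNA-binding transcription factors.

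Ventricular RNA came from 6 male mice on the C57BL/10 background, 1 array per mouse. All 6 carried the mdx mutation, which removes dystrophin, and a single working utrophin allele (utrn+/-), so the untreated mice are diseased animals and not a healthy reference. The 3 treated mice ate chow with 100 ppm finerenone, a non-steroidal antagonist of the mineralocorticoid receptor, started at 4 weeks of age, while 3 mice stayed on the same chow without drug. Tissue was taken at the age of 20 weeks, and the labels call the mice biological replicates assigned to the groups at random.

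The products of Fos, Fosb, Jun and Junb pair through leucine zippers to form the AP-1 transcription factor, and Atf3 encodes a related zipper protein induced by cell stress. Egr1 encodes a zinc finger factor and Nr4a1 an orphan nuclear receptor. In heart muscle and its vessels these genes answer stretch, adrenergic and growth factor signals that arrive through MAP kinases, the serum response factor and CREB, which binds the cAMP response element. Dusp1 and Btg2 are induced by the same signals. Dusp1 restrains them by removing phosphate from MAP kinases, and Btg2 is antiproliferative.

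Signals are log2 values per transcript cluster, so a difference of 1 is a doubling. The median over all genes ran from 4.92 to 4.98 across arrays, and that of the negative control rows from 5.04 to 5.33, highest in untreated replicate 1. In the same array the area under the curve that separates positive from negative control rows was lowest, 0.822, against up to 0.849 elsewhere. The labels put the RNA integrity numbers of all samples above 7.3. Of 10 cardiomyocyte markers 9 were measured, with a mean signal from 17.17 to 17.39, near the highest value of the table (19.93). The mean of the 4 atrial markers was 4.56 to 4.97, below the negative control median of each array. Singly, Myl4 exceeded that median in 6 arrays, Myl7 in 3, Sln in 1 and Bmp10 in 0. Myl7 measured 5.49, 5.93 and 4.72 in finerenone replicates 1 to 3.

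To show what the regulatory sequence of these genes holds, the 250 bases before the RefSeq start site (GRCm38.p6) were searched on both strands for 6 motifs. A start site was given for 8 of the 10 genes, Junb included. The 5 genes whose signal varied most within the groups, described further on, were Fos, Egr1, Nr4a1, Dusp1 and Btg2, and the sequences of 4 of them follow, 5′ to 3′ on the strand of the gene, with every motif match in capitals. Fos lies on the plus strand (chr12:85473640-85473889) and Nr4a1 also (chr15:101266596-101266845), Dusp1 on the minus strand (chr17:26508473-26508722) and Btg2 also (chr1:134079156-134079405).
Fos: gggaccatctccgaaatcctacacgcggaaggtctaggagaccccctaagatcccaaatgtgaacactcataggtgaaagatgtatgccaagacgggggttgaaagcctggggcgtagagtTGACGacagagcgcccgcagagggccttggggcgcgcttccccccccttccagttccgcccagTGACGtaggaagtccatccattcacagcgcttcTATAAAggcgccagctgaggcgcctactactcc
Nr4a1: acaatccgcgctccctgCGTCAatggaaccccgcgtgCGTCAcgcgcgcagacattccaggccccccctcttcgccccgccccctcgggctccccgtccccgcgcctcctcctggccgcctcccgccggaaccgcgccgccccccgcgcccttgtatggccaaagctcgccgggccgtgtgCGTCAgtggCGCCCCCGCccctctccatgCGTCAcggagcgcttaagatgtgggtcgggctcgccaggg
Dusp1: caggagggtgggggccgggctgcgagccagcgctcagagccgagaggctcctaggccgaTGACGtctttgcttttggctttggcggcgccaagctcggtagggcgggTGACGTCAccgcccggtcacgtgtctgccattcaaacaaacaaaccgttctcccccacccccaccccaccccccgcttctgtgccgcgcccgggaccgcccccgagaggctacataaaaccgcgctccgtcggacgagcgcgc
Btg2: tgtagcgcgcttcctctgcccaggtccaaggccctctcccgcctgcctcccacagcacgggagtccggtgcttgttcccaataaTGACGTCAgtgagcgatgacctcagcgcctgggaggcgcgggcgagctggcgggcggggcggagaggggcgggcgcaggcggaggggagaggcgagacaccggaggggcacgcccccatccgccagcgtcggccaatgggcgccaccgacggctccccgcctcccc
The whole cAMP response element TGACGTCA stood in Dusp1, from base -143 to base -136, and in Btg2, from -166 to -159, 2 of the 8 sequences against 1.55% of all 32851 in the RefSeq table. Its core TGACG, which every whole element also contains, on both strands, was found in 7 of the 8 (Fos, Fosb, Junb, Atf3, Nr4a1, Dusp1 and Btg2), against 17.8% of all. Nr4a1 held 4 cores and Fos 2, and Dusp1 held a core at -191 to -187 besides those in its whole element. The Nr4a1 window lies inside the annotated gene (chr15:101253902-101274795), so the start site used is not its outermost one. In Fos the core nearest the start lay at -66 to -62, upstream of a TATA box core TATAAA at -33 to -28, which 12.4% of all sequences hold. An EGR site (GCGTGGGCG or GCGGGGGCG) was present in Fosb and Nr4a1, against 3.06% of all. Neither the AP-1 site TGANTCA (6.75% of all) nor the CArG box, the core of the serum response element (1.47%), had a match in these windows. Sequence further from the start was not searched, nor was any of Egr1 and Ier2, so sites there remain unknown. GC content ran from 58.4% to 74.4% in the 8 sequences, and its median over all was 52.4%.

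**Figure D1:**
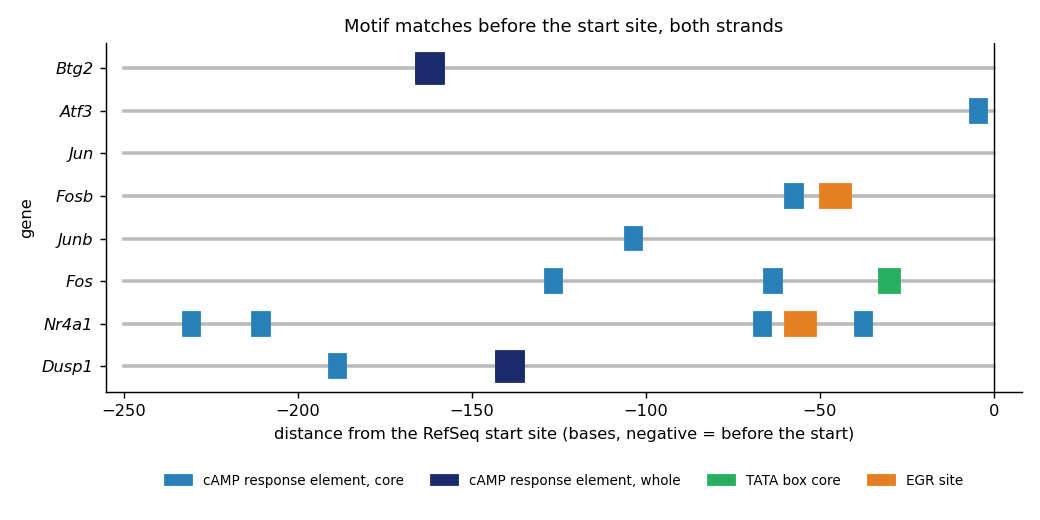
Position of motif matches, in bases before the RefSeq start site, for the 8 genes with a start site in the table; coloured blocks are matches on either strand. The core of the cAMP response element is present in 7 of the 8 genes, Jun being the exception, and the whole element in Dusp1 and Btg2.

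The immediate early genes showed no difference past the test between finerenone-treated and untreated hearts. In limma 0 of the 9 measured genes passed an adjusted p of 0.05, where 0% of all 30063 genes did, and the adjusted p-values of the 9 lay between 0.792 and 0.982. At an unadjusted p below 0.05 there were also 0 of the 9, against 7.80% of all genes (2346). The 3 treated and 3 untreated values overlapped for each of the 9, while the groups did not overlap for 12.3% of all genes. Signal was lower in treated hearts for 6 genes and higher for 3, with a median log2 difference of -0.13 (finerenone minus untreated), and over all genes 41.8% were lower, 58.2% were higher and the median was 0.03. After quantile normalization the share of all genes that were higher was 48.1%. Signs did not turn for any of the 9 after quantile normalization, cyclic loess or median centring. The intervals were wide and leave room for sizeable differences either way: for Egr1 the interval reached from a fold of 0.247 to one of 1.84.

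**Figure D2:**
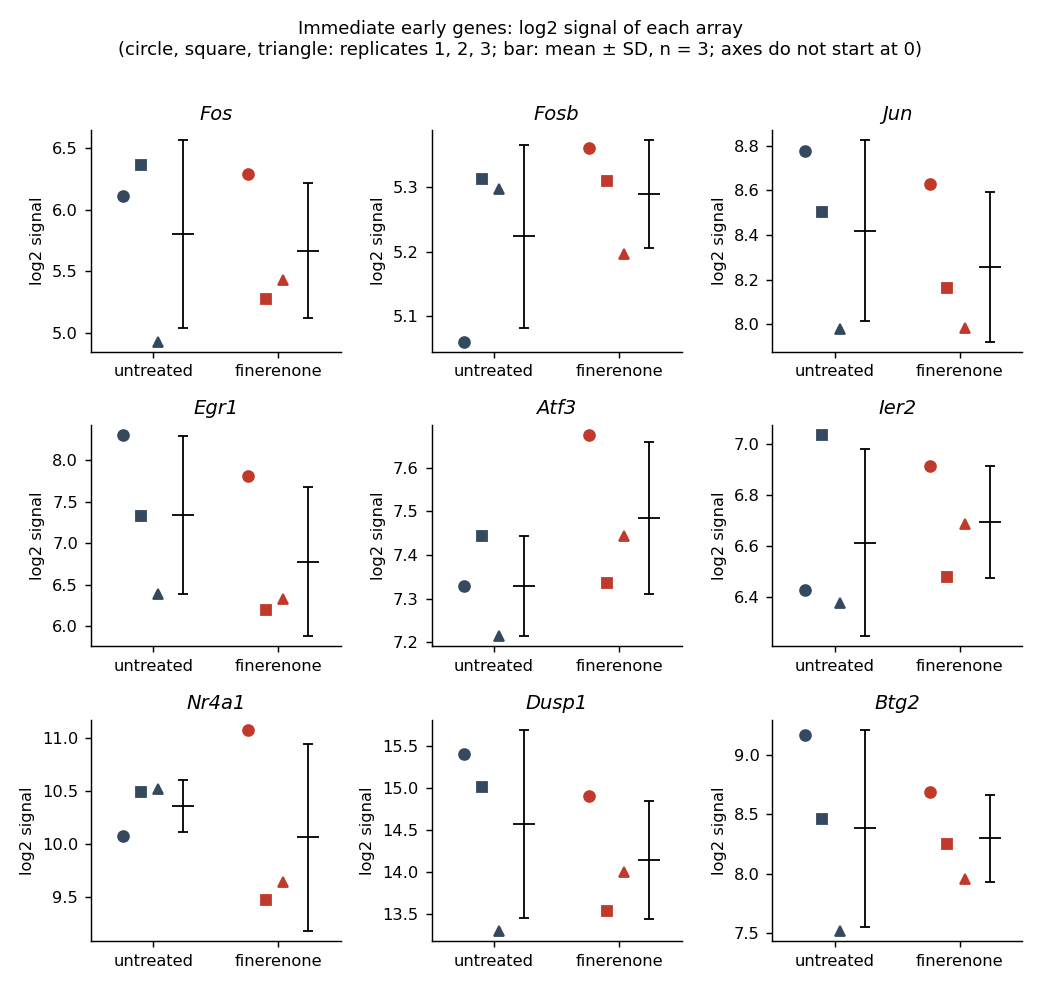
Log2 signal of each of the 9 measured genes in every array, untreated in grey-blue and finerenone in red, with the group mean and SD (n = 3 each); circle, square and triangle are replicates 1, 2 and 3, and the axes do not start at 0. Treated and untreated values overlap in every panel, and the circle is the highest treated array in all 9.

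Of the AP-1 subunits, Fos measured 6.29, 5.28 and 5.43 in finerenone replicates 1 to 3 and 6.11, 6.36 and 4.93 in the untreated replicates. Each group thus held both high and low hearts, over a range of 1.43. Means were 5.67 ± 0.55 and 5.80 ± 0.76 (SD, n = 3 each), a log2 difference of -0.13 ± 0.43 (SE; 95% interval -1.18 to 0.91; limma adjusted p = 0.968). Fos was dim: untreated replicate 3 lay below the median of the negative control rows. Leaving out finerenone replicate 2 turned its sign (0.06), as did leaving out untreated replicate 1 (0.02) or 2 (0.15).

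Jun encodes the main partner of the Fos protein. Its signal was 8.63, 8.16 and 7.98 in treated and 8.78, 8.50 and 7.98 in untreated hearts. The same arrays were high as for Fos (finerenone replicate 1, untreated replicates 1 and 2), within a narrower range of 0.80. Group means were 8.26 ± 0.34 and 8.42 ± 0.40 (SD, n = 3 each), which gave a difference of -0.16 ± 0.25 (SE; limma adjusted p = 0.910), or 0.02 without untreated replicate 1. Fosb, a paralog of Fos, stayed between 5.06 and 5.36 in all arrays and exceeded the negative control median in only 4 of the 6. Its difference of 0.06 ± 0.10 (SE, n = 3 each; limma adjusted p = 0.913) therefore concerns a signal at background level, and it was -0.02 without untreated replicate 1.

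Egr1, whose product binds GC-rich sites in growth and matrix genes, had the largest difference of the 9 in the fit as planned, though not in every alternative (after quantile normalization Dusp1 was at -0.64 and Egr1 at -0.62). It measured 7.81, 6.19 and 6.33 in treated hearts and 8.30, 7.33 and 6.39 in untreated ones. A single treated heart and a pair of untreated hearts were high, and the other three lay between 6.19 and 6.39. Means of 6.77 ± 0.90 and 7.34 ± 0.96 (SD, n = 3 each) differed by -0.57 ± 0.60 (SE; 95% interval -2.01 to 0.88; limma adjusted p = 0.862). Leaving out finerenone replicate 1 moved the value to -1.08, and leaving out untreated replicate 1 moved it to -0.09.

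Nr4a1 followed another order. Treated hearts gave 11.07, 9.47 and 9.64, and untreated hearts 10.08, 10.49 and 10.51. The untreated hearts lay close together and inside the treated range, whose top value was finerenone replicate 1. Means were 10.06 ± 0.88 and 10.36 ± 0.24 (SD, n = 3 each), and the difference was -0.30 ± 0.42 (SE; limma adjusted p = 0.902). Without finerenone replicate 1 it was -0.80, at an unadjusted limma p of 0.00365 that did not pass after adjustment (limma adjusted p = 0.757). Without finerenone replicate 2 it was -0.0028.

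Atf3 encodes a stress-induced member of the ATF/CREB family and kept a small range. Values of 7.67, 7.34 and 7.44 in treated and 7.33, 7.44 and 7.21 in untreated hearts averaged 7.48 ± 0.17 and 7.33 ± 0.11 (SD, n = 3 each). The difference of 0.16 ± 0.12 (SE; 95% interval -0.12 to 0.44) had the smallest p of the 9 genes (limma unadjusted p = 0.226, adjusted p = 0.792), and it was 0.06 without finerenone replicate 1. Ier2 measured 6.91, 6.48 and 6.69 against 6.43, 7.03 and 6.37, with finerenone replicate 1 and untreated replicate 2 on top. Its difference of 0.08 ± 0.21 (SE, n = 3 each; limma adjusted p = 0.954) turned to -0.03 without finerenone replicate 1, -0.01 without untreated replicate 1 and -0.04 without untreated replicate 3.

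Dusp1, the phosphatase that switches off p38, JNK and ERK, had signals of 14.91, 13.53 and 13.998 in treated hearts and of 15.41, 15.02 and 13.30 in untreated hearts. Untreated hearts thus held both the highest and the lowest value, 2.11 apart. Group means of 14.15 ± 0.70 and 14.58 ± 1.12 (SD, n = 3 each) differed by -0.43 ± 0.61 (SE), a fold of 0.743 with a 95% interval from 0.270 to 2.04 (limma adjusted p = 0.902). The log2 difference was -1.07 without untreated replicate 3 and -0.01 without untreated replicate 1. Btg2, an antiproliferative coregulator that p53 also induces, measured 8.69, 8.25 and 7.95 in treated and 9.17, 8.46 and 7.51 in untreated hearts. Here too untreated replicates 1 and 3 were the extremes. The difference was -0.09 ± 0.42 (SE, n = 3 each; limma adjusted p = 0.982), and it turned to 0.31 without untreated replicate 1 and to 0.09 without finerenone replicate 3.

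**Figure D3:**
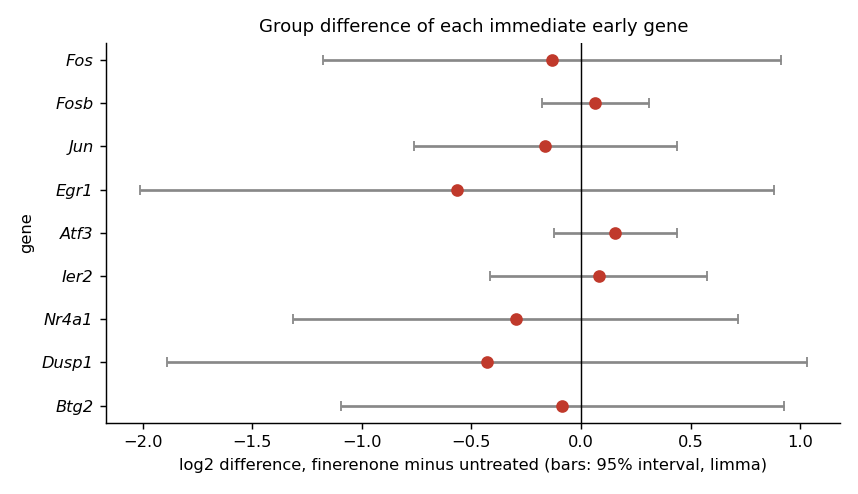
Log2 difference between finerenone and untreated hearts for each measured gene, with the 95% interval of the limma fit (n = 3 arrays per group). All 9 intervals include 0, and they are widest for Egr1 (-2.01 to 0.88) and Dusp1 (-1.89 to 1.03).

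Several of these genes varied widely among mice of the same group. The pooled SD within groups was 0.94 for Dusp1, 0.93 for Egr1, 0.66 for Fos, 0.65 for Nr4a1 and 0.64 for Btg2, on the log2 scale, each above the 99th percentile of all genes, whose median was 0.16 (0.17 for genes with a mean of at least 6). Jun (0.37, percentile 93.9) and Ier2 (0.30, percentile 87.5) were also above that median, and Atf3 (0.15) and Fosb (0.12) below it. Finerenone replicate 1 was the highest treated array for all 9 genes, which held for 35.2% of all genes. Untreated replicate 3 was the lowest untreated array for 7 of the 9, against 32.9% of all genes, with Fosb and Nr4a1 as the exceptions. These arrays were singled out after the values were seen, and the shares are a description. Averaged over the 9 genes, the deviation from each gene's own mean was 0.44 in finerenone replicate 1, 0.37 in untreated replicate 1 and 0.29 in untreated replicate 2. It was -0.37 and -0.30 in finerenone replicates 2 and 3 and -0.43 in untreated replicate 3. High and low hearts therefore occurred in both groups.

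**Figure D4:**
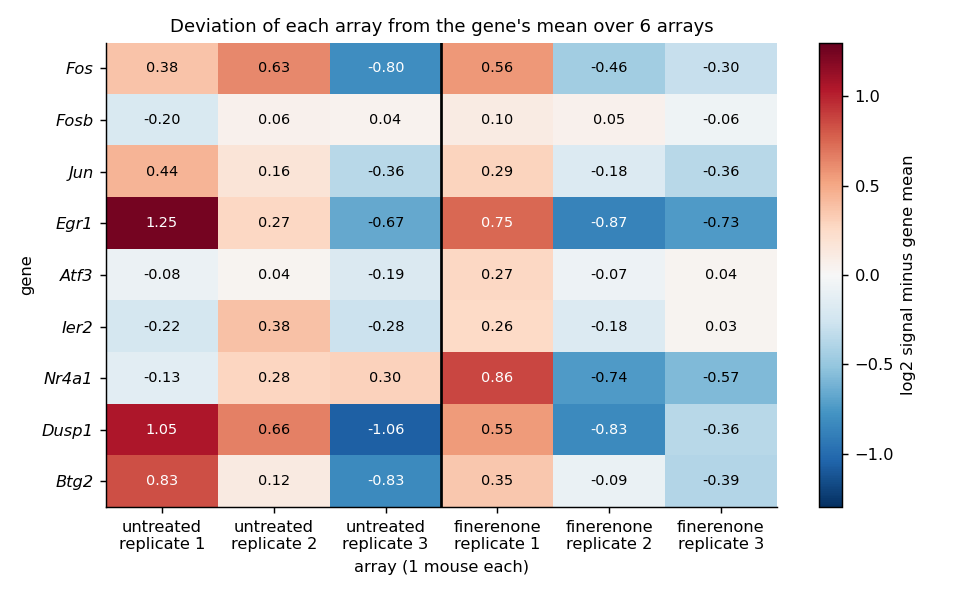
Deviation of each array from the mean of the gene over the 6 arrays, in log2 units, with untreated arrays left of the line and finerenone arrays right of it. Finerenone replicate 1 is above the mean for all 9 genes, and the deepest low values are Dusp1 in untreated replicate 3 (-1.06) and Egr1 in finerenone replicate 2 (-0.87).

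Other measures were set beside this order of arrays, and their part in it was not tested. The negative control median was 5.11, 5.04 and 5.29 in finerenone replicates 1 to 3 and 5.33, 5.11 and 5.24 in the untreated replicates. Clock genes differed among the treated hearts, and the labels used here give no time of day of tissue collection. Arntl, the activator BMAL1, measured 8.89 in finerenone replicate 1, 5.96 and 5.83 in replicates 2 and 3, and 8.27 to 8.90 in untreated hearts. The clock output gene Dbp was at 8.06 in finerenone replicate 1 against 10.99 and 10.79 in the other treated hearts, and at 8.68 to 9.25 in untreated hearts. Untreated replicate 3, low for most immediate early genes, measured 8.27 for Arntl and 8.71 for Dbp. The difference between groups in Dbp, 1.06, was 0.54 without finerenone replicate 2 and 2.01 without finerenone replicate 1. Dbp and Arntl are shown here because their values were seen to split the treated hearts.

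Cell type markers are given for the same arrays, and their part was not tested either. The mean of 9 measured endothelial markers, all 9 lower in treated hearts, was 11.54 to 11.75 in treated hearts. In untreated replicates 1 to 3 it was 12.37, 11.74 and 11.90. Differences ran from -0.86 ± 0.27 for Kdr (SE, n = 3 each; limma adjusted p = 0.596) to -0.03 for Vwf. Without untreated replicate 1, Kdr was at -0.585. Of 8 smooth muscle and pericyte markers 7 were lower (8.60 to 8.86 against 8.71 to 9.19), with Pdgfrb at -0.55. All 10 macrophage and monocyte markers were higher (9 of the 10 after quantile normalization or cyclic loess), with means of 9.04 to 9.45 against 8.72 to 9.15 and Ccr2 at 0.51. Macrophage marker means were 9.45, 9.04 and 9.29 in finerenone replicates 1 to 3. In untreated replicates 1 to 3 they were 8.84, 9.15 and 8.72. Untreated replicate 1, high on average for the immediate early genes, thus lay below every treated heart for macrophage markers. Of the fibroblast markers 7 were measured, 5 higher or, after quantile normalization, 2 higher, with Mfap5 at 0.54. Their means were 10.14, 9.76 and 10.02 in finerenone replicates 1 to 3 and 9.85, 10.11 and 9.65 in the untreated ones. In bulk tissue fewer cells of a type and less RNA per cell cannot be told apart. Markers of T, NK and B cells averaged 4.22 to 4.37, below the negative control medians (Klrb1c at -0.28). Granulocyte and mast cell markers (Mcpt4 at -0.44) averaged 5.87 to 6.73, and skeletal muscle markers (Myh1 at -0.17) 8.18 to 8.76. The skeletal muscle average was carried by Acta1 (mean 14.13) and Ckm (15.64). Myh1 (6.01) and Myh4 (5.84) were far dimmer, and Myog and Myod1 exceeded the negative control median in 0 arrays. Cardiomyocyte markers had a median difference of 0.0013, or -0.13 after quantile normalization, with Ttn at -0.25, and the atrial marker Sln was at 0.30. Tnnt2 lay at 19.92 to 19.93 in all arrays, at the top of the scale. The pooled SD within groups was 0.003 for Tnnt2, 0.009 for Pln, 0.016 for Myh6 and 0.019 for Myl3. A median over rows this flat says little about the amount of cardiomyocyte RNA. With single arrays left out Ttn ran from -0.53 to -0.04, Mcpt4 from -0.73 to -0.18, Sln from 0.18 to 0.41 and Myh1 from -0.22 to -0.10, and Ttn was at -0.55 at the far end of the other alternatives. None of these marker genes passed an adjusted p of 0.05 in limma.

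Among 10673 other named genes with a mean at or above the median, 5 had centred values nearest to the mean profile of the 9 immediate early genes over the 6 arrays. Nearness was the root mean square difference, which was 0.12 for Nrn1, 0.13 for Arid5b and Trim63, 0.14 for H2-Aa and 0.16 for Twf2, on the log2 scale. Over the 9 genes themselves it ran from 0.12 to 0.48. Nrn1 encodes neuritin, a secreted protein of neurons, and measured 7.89, 6.93 and 7.10 in treated and 7.999, 7.63 and 6.83 in untreated hearts. Trim63 encodes MuRF1, a ubiquitin ligase of muscle atrophy, and measured 12.26, 11.39 and 11.49 against 12.16, 11.96 and 11.66. Arid5b is a chromatin regulator, Twf2 an actin-binding protein and H2-Aa an MHC class II chain. Their group differences ran from -0.22 (Trim63) to 0.10 (H2-Aa), and none passed (limma adjusted p from 0.878 for Trim63 to 0.967 for H2-Aa). Trim63 was at -0.05 without finerenone replicate 2, and Twf2 at -0.0058 without untreated replicate 2.

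Related genes were taken in 9 lists covering 117 measured genes, with 0 past an adjusted p of 0.05 in limma. At an unadjusted p below 0.05 there were 15 (12.8%), against 7.80% of all genes, and the groups did not overlap for 17 (14.5%), against 12.3% of all. All genes include many dim ones, with a median mean of 4.94. In the fit of the 11346 genes with a mean of at least 6, 1303 had an unadjusted limma p below 0.05, a larger share than 7.80%. The lists were chosen with earlier results of these data known, so these shares are a description. Among the 117, signal was higher for 61 and lower for 56, and the median difference was 0.02. The signals upstream were measured in 17 of 21 genes, 10 higher and 7 lower (median 0.02) but 6 higher and 11 lower after quantile normalization (median -0.04), and 4 of the 17 were lower without overlap, against 4.17% of all genes. Srf, the serum response factor that drives Fos and Egr1, measured 9.57, 9.24 and 9.38 in treated and 9.70, 9.88 and 9.80 in untreated hearts. Every treated value was below every untreated one, with a difference of -0.40 ± 0.11 (SE, n = 3 each; limma adjusted p = 0.596). Its ternary complex partners Elk4 and Elk3 differed by -0.31 ± 0.12 and -0.48 ± 0.21, and without untreated replicate 1 Elk4 was at -0.19 and Elk3 at -0.26. Srf, Elk4 and Elk3 were named by smallest unadjusted p, while the 10 higher genes of that list reached 0.26 (Map2k6).

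Family relatives of the AP-1 and ATF genes gave 9 higher and 5 lower of 14 measured, with a median of 0.06 (8 higher and a median of 0.02 after quantile normalization). Crem, a cAMP-responsive relative of CREB, was at 6.72, 6.49 and 6.54 in treated against 6.25, 6.32 and 6.34 in untreated hearts, without overlap, as were 8.17% of all genes in this direction (0.28 ± 0.09 SE, n = 3 each; limma adjusted p = 0.596). Atf4, the factor of the integrated stress response, differed by 0.17 ± 0.07 and Atf2 by -0.25 ± 0.11. In the EGR and NR4A list, 2 of 7 were higher and 5 lower (median -0.06). Nr4a3, the paralog of Nr4a1, measured 6.98, 6.75 and 7.32 in treated and 6.09, 6.72 and 6.40 in untreated hearts. Its groups did not overlap, with the treated hearts above (0.61 ± 0.20 SE, n = 3 each; limma adjusted p = 0.600). The difference between the responses of Nr4a1 and Nr4a3 was not tested. The EGR corepressor Nab2 differed by -0.14 and Egr4 by -0.11, and Nab2 was at 0.01 when the rows of a gene were averaged. Without finerenone replicate 3, Nab2 was at -0.09 and Egr4 at -0.03.

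MAP kinase phosphatases were lower in 6 of 9 cases (median -0.06, or -0.10 after quantile normalization), with Dusp3 at -0.23 ± 0.10, Dusp8 at -0.24 ± 0.13 and Dusp16 at -0.17 ± 0.10 (SE, n = 3 each). Dusp8 was at -0.15 without finerenone replicate 2, and Dusp16 at -0.10 without finerenone replicate 1. Of the BTG and TOB family, which recruits deadenylases to messenger RNA, 3 of 4 were lower (median -0.14). Tob2 was at -0.52 ± 0.23, Tob1 at -0.22 and Btg3 at 0.18, and Btg3 was at 0.0059 without finerenone replicate 2. Without untreated replicate 1, Tob2 was at -0.33 and Tob1 at -0.14. The 36 other immediate early genes split into 16 higher and 20 lower (median -0.05, or -0.11 with 14 higher after quantile normalization). The groups did not overlap for 4 of the 36, a share near the 12.3% of all genes. Rgs2, a regulator of G protein signalling, was at -0.67 ± 0.19 with treated hearts at 10.15, 10.16 and 10.10 and untreated hearts at 10.70, 11.25 and 10.48. Gadd45g, a growth arrest gene, was at -0.48 ± 0.18 and Csrnp1, a nuclear protein rich in cysteine and serine, at -0.40 ± 0.15 (SE, n = 3 each; limma adjusted p from 0.596 to 0.614 for these 3). Named by smallest unadjusted p, these 3 are all among the 20 lower genes, while the 16 higher ones reached 1.15 ± 0.59 (SE, Ier3). Csrnp1 was at -0.26 without finerenone replicate 2.

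Textbook targets of AP-1, EGR1 and ATF3 were higher in 6 of 9 measured cases (median 0.10), with Hmox1, a heme oxygenase, at 0.46 ± 0.16, Ddit3 (CHOP) at 0.39 ± 0.21 and vinculin (Vcl) at -0.23 ± 0.14 (SE, n = 3 each). Ddit3 was at 0.21 without untreated replicate 2, and Vcl at -0.13 without untreated replicate 3. Corticosteroid receptor targets, a class to which Dusp1 also belongs, were higher in 6 of 10 cases (median 0.12), but in 5 of 10 after quantile normalization (median 0.01). Errfi1 was at -0.73 ± 0.25, Sgk1 at -0.55 ± 0.27 and Cdkn1a at -1.66 ± 0.50 (SE, n = 3 each; limma adjusted p from 0.596 to 0.672). These were named by smallest unadjusted p and are all among the 4 lower genes, while the 6 higher ones reached 0.64 ± 0.77 (Mt2). In Cdkn1a finerenone replicate 1 (12.13) lay nearer to the untreated hearts than replicates 2 and 3 did (10.24 and 10.27). Sgk1 was at -0.26 without untreated replicate 1 and Errfi1 at -0.45 without finerenone replicate 2. Clock genes were higher in 8 of 12 cases and lower in 4 (median 0.36). Those with the smallest unadjusted p were all among the lower ones. They were Arntl at -1.63 ± 0.80, Clock at -0.86 ± 0.26 and Nr1d1 at -0.68 ± 0.12 (SE, n = 3 each; limma adjusted p from 0.596 to 0.681). The values of the groups overlapped for Arntl (95% interval -3.57 to 0.30), which was at -2.63 without finerenone replicate 1 and at -1.10 without finerenone replicate 3.

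**Figure D5:**
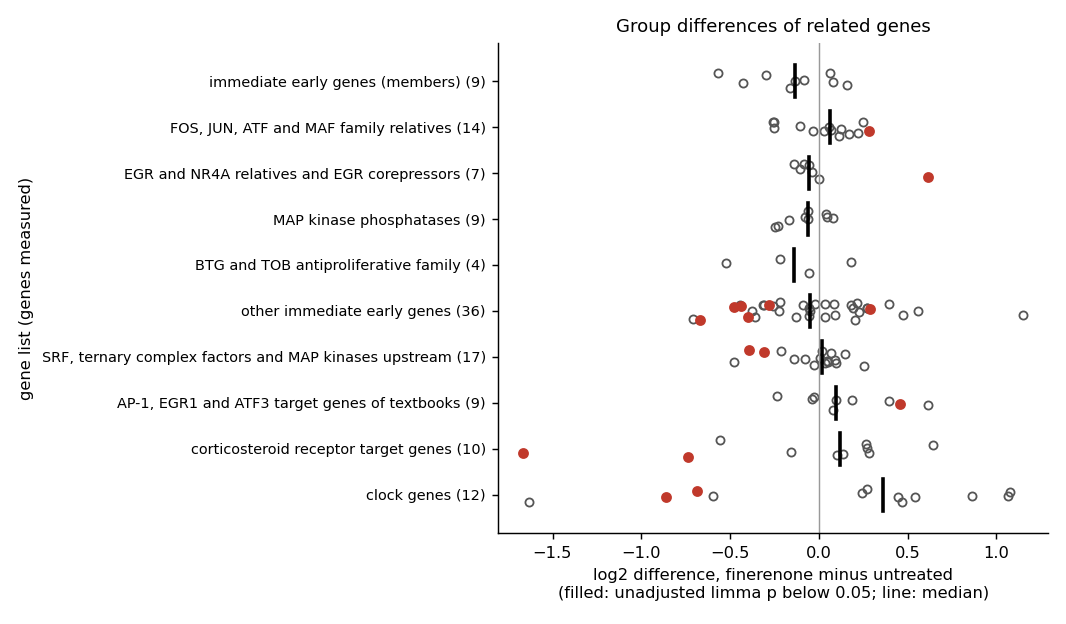
Log2 difference between finerenone and untreated hearts for the 9 immediate early genes and each related list, 1 point per gene; filled points have an unadjusted limma p below 0.05 and black lines are medians. The 9 immediate early genes hold no filled point, and no gene in any list passed an adjusted p of 0.05.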

How the data were processed

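The authors deposited log2 signals per transcript cluster, for which the submitters' processing notes name RMA, Transcriptome Analysis Console and Affymetrix Expression Console. This method corrects background, equalises the arrays and summarises probes. Their versions, and the annotation build, were not given in the sources used here. Of 72688 rows, 65956 were transcript clusters, of which 30604 had a single symbol, 2146 several and 33206 none. Symbols were updated through RefSeq (GRCm38.p6). For the 430 genes with several rows the row with the highest mean was used, leaving 30063 genes.

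Groups came from the sample titles. Groups were compared by limma 3.58.1 under R 4.3.3 (eBayes after lmFit, two-sided, no covariate) with Benjamini-Hochberg adjustment over all genes; the code was tested on simulated data. Having 3 arrays per group limits the precision. Members, lists and motifs were chosen with earlier results of these data known. All members were named, with up to 3 genes per related list and 1 per marker list by smallest unadjusted p, and the 5 genes nearest in profile. Dbp was added after its values were seen. The alternatives tried were other scalings, a filter at a mean of 6, averaged rows, another prior, array weights, a replicate block, all clusters and single arrays left out. Tables and plots used pandas 2.3.3, matplotlib 3.10.9 and Python 3.11.15.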

Additional observations from a re-analysis of the deposited data

How the results depend on the processing

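Under all 15 alternatives 0 of the measured immediate early genes and 0 of all genes passed an adjusted p of 0.05 in limma. The replicate block also gave 0 (2312 genes at an unadjusted p below 0.05, against 2346 without it). Over all genes the replicate numbers did not pair the mice. Deviations of same-numbered arrays from their group means correlated at -0.15, 0.06 and 0.06, and no treated array correlated best with its own number. Among the immediate early genes the block lowered the SE of Egr1 (0.60 to 0.23), Jun (0.25 to 0.11), Btg2, Fos and Dusp1. It raised the SE of Nr4a1 (0.42 to 0.44), Ier2, Atf3 and Fosb. With the block Egr1 had an unadjusted limma p of 0.0602 (adjusted p = 0.655). With array weights, Fos was at 0.062, Btg2 at 0.13 and Nrn1 at 0.00012, signs turned from the fit without weights, and the median of the immediate early genes was 0.04. Averaged rows put Nab2 at 0.011. With single arrays left out, the median ran from -0.38 to -0.0028, and these genes turned sign: Fos (-0.57 to 0.15), Fosb (-0.016 to 0.11), Jun (-0.38 to 0.016), Ier2 (-0.038 to 0.29), Btg2 (-0.52 to 0.31), Nrn1 (-0.51 to 0.078), Arid5b (-0.34 to 0.053) and H2-Aa (-0.21 to 0.26). Egr1, Atf3, Nr4a1 and Dusp1 kept their sign in every alternative fitted. Nr4a1 was however at -0.0028 without finerenone replicate 2, and Dusp1 at -0.011 without untreated replicate 1. The sign also held for 38 of the 42 other named genes. Most of those were named for a small unadjusted p in this same comparison, so that count is no measure of stability. The cause of the turns was not tested. The filter at a mean of 6 left out Fos and Fosb, whose signals lie near the negative control median. Nr4a1 and Dusp1 alone exceeded the 95th percentile of the negative controls in all 6 arrays, Jun and Btg2 did in 3, and the other 5 measured genes in none.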
